A study of Mus musculus with 3 samples.

Results

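Goblet cells caught in the cell cycle made up 878 of the 39227 single-cell barcodes kept from 3 mouse small-intestinal libraries, with 618 in WT, 140 in *LApc* and 120 in *LApcL*. A barcode with at least 500 detected genes and at most 20% mitochondrial UMIs (unique molecular identifiers, each standing for 1 captured RNA molecule) was chosen by 4 limits on its own UMIs. *Tff3* had to make up at least 2% of its UMIs, *Lyz1* less than 0.2% and *Defa24* less than 5%, and *Mki67*, *Top2a*, *Birc5*, *Ube2c*, *Cdk1*, *Ccnb1*, *Ccnb2* and *Cenpf* together had to give at least 4 UMIs. The same *Tff3*, *Lyz1* and *Defa24* limits with fewer than 4 of those cell-cycle UMIs gave 2908, 1750 and 872 non-cycling goblet cells in WT, *LApc* and *LApcL*. The cells were further set beside 2609, 1614 and 811 cycling transit-amplifying (TA) barcodes, which had the same 4 cell-cycle UMIs but less than 1% *Tff3*, no UMI of the adenoma genes *Sox17* and *Msx1*, and fewer than 4 UMIs of enteroendocrine and tuft genes. Because the limits use *Tff3*, *Lyz1*, *Defa24* and the 8 cell-cycle genes, the levels of those genes describe how the cells were chosen and are not findings.

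The study asked how loss of the Wnt-pathway transcription factor *Lef1* alters intestinal tumours that start from *Apc* loss in stem cells. EpCAM+ epithelial cells were profiled with a droplet 3′ assay in 1 library per genotype. The mice were C57BL/6, received 2 doses of 2 mg tamoxifen at 7 to 8 weeks of age, and were sampled 21 days later in the WT and *LApcL* groups and 29 days later in the *LApc* group. *LApc* stands for Lgr5-CreERT2;Apc fl/fl, and the *LApcL* mouse carried *Lef1* fl/fl in addition to both of these alleles; the WT mouse is labelled only as WT. The driver is the Lgr5-EGFP-IRES-CreERT2 knock-in at the *Lgr5* locus, so deletion starts in *Lgr5*+ crypt stem cells, and a goblet cell in these mice may descend from a recombined or a non-recombined stem cell. Each library came from 1 mouse, so genotype, mouse, library and, for *LApc*, day of sampling cannot be told apart, no difference between genotypes has a replicate check, and no p-value is given. Exact 95% intervals cover counting error only.

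Goblet cells are the mucus-secreting cells of the intestinal epithelium. They arise when a crypt progenitor switches on *Atoh1*, which directs cells to the secretory lineages, and they mature under factors such as *Spdef*, *Klf4* and *Creb3l1* while filling with *Muc2* mucin and the small proteins packed with it. Secretory progenitors carry the Notch ligands *Dll1* and *Dll4* on their surface, which hold neighbouring cells in the absorptive lineage, and are thought to divide a limited number of times before they stop cycling.

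Promoters of mitotic genes, some of which separated cycling from resting goblet cells, held CCAAT more often than goblet cargo promoters did. Mitotic genes are known to carry CCAAT boxes, bound by NF-Y, and cell-cycle homology regions, bound by the MuvB complex. The 150 bases before the RefSeq start (GRCm38.p6, read on the gene's strand, 5′ to 3′) are shown for *Top2a*, *Ccnb2* and *Ube2c* of the gate, for the mitosis gene *Cdc20* and for *Agr2*, a goblet gene, because these 2 kinds of gene met in the same barcodes. The first 4 were picked as examples that hold the letters. Capitals mark CCAAT or its reverse complement ATTGG, and TTTGAA or its reverse complement TTCAAA.
Top2a (chr11:99024190-99024339, minus strand): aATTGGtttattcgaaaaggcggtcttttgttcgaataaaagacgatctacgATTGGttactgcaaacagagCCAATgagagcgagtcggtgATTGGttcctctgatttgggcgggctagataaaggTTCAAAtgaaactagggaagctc
Cdc20 (chr4:118437344-118437493, minus strand): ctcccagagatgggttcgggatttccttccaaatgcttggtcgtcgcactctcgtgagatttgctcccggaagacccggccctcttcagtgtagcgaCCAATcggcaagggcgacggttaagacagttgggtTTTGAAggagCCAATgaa
Ccnb2 (chr9:70421555-70421704, minus strand): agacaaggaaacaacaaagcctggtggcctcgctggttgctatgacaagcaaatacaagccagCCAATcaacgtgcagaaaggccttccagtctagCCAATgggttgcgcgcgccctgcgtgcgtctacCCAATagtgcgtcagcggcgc
Ube2c (chr2:164769779-164769928, plus strand): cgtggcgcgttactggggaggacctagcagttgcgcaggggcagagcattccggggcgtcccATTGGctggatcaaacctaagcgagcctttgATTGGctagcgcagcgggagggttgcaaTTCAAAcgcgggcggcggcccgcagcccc
Agr2 (chr12:35992775-35992924, plus strand): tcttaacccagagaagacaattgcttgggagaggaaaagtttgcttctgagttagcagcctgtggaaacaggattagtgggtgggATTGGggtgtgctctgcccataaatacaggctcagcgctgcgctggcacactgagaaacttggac

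Over the 250 bases before the start and on both strands, 32 of the 41 matched mitotic genes (78.0%; the 8 genes of the gate and 39 others, 47 in all) held CCAAT at least once, against 9314 of 27025 RefSeq promoters (34.5%). The 27025 are the first entry of each gene symbol, with the promoters of a single chromosome left out. At least 2 copies stood in 56.1% of these 41 promoters and in 10.5% of all promoters. TTTGAA was found in 34.1% against 16.3%, and both motifs in 31.7% against 5.73%. Of the 14 matched goblet cargo promoters (20 genes in the list), 28.6% held CCAAT, 7.14% held it at least 2 times and none held both motifs. A match is a run of letters in this window and does not show that a factor binds there.

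The marker genes of these cells lie, in the mm10 build, at chr17:31125306-31129646 on the minus strand for *Tff3*, chr12:35992907-36004087 on the plus strand for *Agr2*, chr11:83572919-83578636 on the minus strand for *Ccl9*, chr2:91982328-92024502 on the minus strand for *Creb3l1*, chr7:135689784-135716361 on the minus strand for *Mki67* and chr11:98992943-99024189 on the minus strand for *Top2a*. All 6 are protein-coding, and the spans are those of the whole genes.

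The libraries held 11453, 13214 and 17388 barcodes, of which 11391, 10864 and 16972 were kept. The cycling goblet cells contributed 8186367 UMIs in the WT library, 1277792 in *LApc* and 1470253 in *LApcL*, so WT values carry the smallest counting error. Of the barcode sequences, 214 to 318 occurred in any 2 libraries, but among the cycling goblet cells 1 was shared between WT and *LApc* and 0 between other pairs. *Lef1*, the gene deleted in *LApcL*, gave 0, 2 and 1 UMIs in the cycling goblet cells of WT, *LApc* and *LApcL*, and *Apc* stood at 22.6, 18.8 and 21.1 CPM (counts per 1000000 of all UMIs summed over the cells). The assay reads 3′ ends, which are not shown to lie in the floxed parts, so neither gene checks the genotype in these cells.

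The label was checked against its markers. *Agr2*, a disulphide isomerase needed for mucin folding, was at 13589, 7651 and 5882 CPM in WT, *LApc* and *LApcL* cycling goblet cells, against 423, 313 and 180 CPM in cycling TA cells. *Ccl9*, a chemokine, and *Creb3l1*, a membrane-bound transcription factor of secretory cells, likewise exceeded the TA level in each library. *Mki67* and *Top2a*, which the gate used, stood close to their TA levels. The markers of immune and stromal cells gave 8, 1 and 1 UMIs in all, with 5, 9 and 9 of the 10 genes at 0.

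Barcodes that join a goblet and a cycling transcriptome could also be droplets with 2 cells, and several measurements bear on this. The doublet caller Scrublet, set to the expected doublet rate of each library, marked 225 of the 618 WT (36.4%), 65 of the 140 *LApc* (46.4%) and 60 of the 120 *LApcL* cycling goblet cells. It marked 10.6%, 14.0% and 11.2% of the non-cycling goblet cells, and 4.06%, 8.30% and 7.52% of the cycling TA cells. Median UMIs per cell were 12715.5, 8885 and 11892, above 8765, 5235 and 6706 in non-cycling goblet cells and above 11755, 8347 and 10250 in TA cells.

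Without the barcodes that Scrublet marked, *Agr2*, *Ccl9* and the goblet regulators stood higher than over all cycling goblet cells. The 12 goblet transcription factors summed to 1373, 1448 and 1114 CPM, against 1179, 1158 and 889 CPM over all. The 20 cargo genes summed to 81815, 66622 and 75359 CPM, against 84440, 75975 and 75095 CPM over all, so their sum was lower in WT and *LApc* and about level in *LApcL*. *Agr2* stood at 16106, 10595 and 8947 CPM, *Ccl9* at 507, 575 and 476 CPM, and *Atoh1* at 142, 176 and 110 CPM. *Mki67* stood at 211, 273 and 184 CPM. *Zg16* stood at 20131, 14602 and 23178 CPM, against 25985, 27662 and 31289 CPM with the marked barcodes. How much of the whole set is doublets was not tested beyond these values.

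Cycling cells formed a larger share of the goblet compartment in WT than in *LApc*, with *LApcL* between them. They were 17.5% of 3526 goblet cells in WT (95% interval 16.3 to 18.8), 7.41% of 1890 in *LApc* (6.27 to 8.68) and 12.1% of 992 in *LApcL* (10.1 to 14.3), by exact Clopper-Pearson intervals. *LApc* lay 10.1 percentage points below WT, a difference of −10.1 with an interval from −11.8 to −8.34, and *LApcL* lay 5.43 points below WT, with an interval from −7.78 to −2.91. *LApcL* exceeded *LApc* by 4.69 points (2.35 to 7.16).

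With the limit of 4 cell-cycle UMIs kept, the gap between *LApcL* and *LApc* did not hold at equal depth. With a limit of 1 cell-cycle UMI it did hold. After each cell was thinned to 3000 UMIs, which left out 222 shallower goblet cells in *LApc* and 14 in *LApcL*, 8.17% (7.28 to 9.12), 4.20% (3.29 to 5.27) and 4.29% (3.11 to 5.76) of the goblet cells had 4 or more cell-cycle UMIs. The difference between *LApcL* and *LApc* was then 0.0978 points (−1.50 to 1.82), while *LApc* stayed below WT by −3.97 points (−5.29 to −2.58) and *LApcL* by −3.87 points (−5.39 to −2.16). The thinned shares with 1 or more cell-cycle UMIs were 33.58%, 22.36% and 38.96% in WT, *LApc* and *LApcL*. Their intervals were 32.02 to 35.17%, 20.38 to 24.44% and 35.89 to 42.09%. At that limit *LApcL* thus lay above WT as well as above *LApc*. How much of these shares is background was not tested. When barcodes with a *Sox17* or *Msx1* UMI were left out of the goblet cells, a choice made after these values were seen, *LApcL* exceeded *LApc* by 0.712 points without thinning. In enterocytes, which do not divide and were taken as barcodes with at least 0.3% *Apoa1*, 3.10%, 2.42% and 6.28% of thinned barcodes reached 4 cell-cycle UMIs in WT, *LApc* and *LApcL* when none were left out for cycling, so the *LApcL* goblet share of 4.29% did not exceed this background.

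Among all kept barcodes, cycling goblet cells were 5.43% in WT (5.02 to 5.86), 1.29% in *LApc* (1.09 to 1.52) and 0.707% in *LApcL* (0.587 to 0.845). The order followed the goblet compartment as a whole, which was 31.0%, 17.4% and 5.84% of kept barcodes. Of all cycling barcodes, 15.8%, 5.88% and 1.42% were goblet cells. A share of the *LApcL* library is also set by its 6574 cycling barcodes with *Sox17* or *Msx1* UMIs, of which *LApc* had 408 and WT 4.

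**Figure D1:**
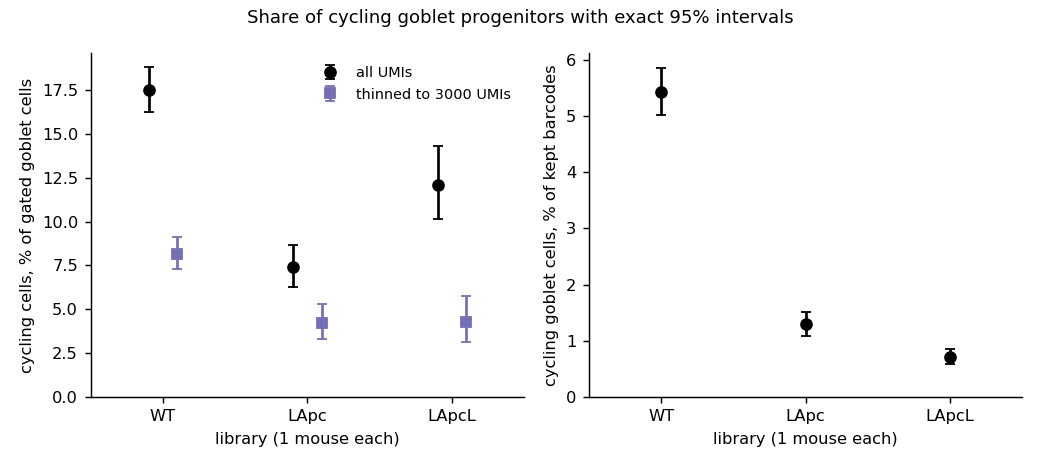
Share of goblet cells that were cycling (left, percent of goblet barcodes, all UMIs and after thinning each cell to 3000 UMIs) and share of all kept barcodes that were cycling goblet cells (right, percent) in the 3 libraries, with exact 95% intervals. WT was highest in both panels, and the thinned *LApc* and *LApcL* shares, 4.20% and 4.29%, lay within each other's interval.

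Within the set, cells ranged from those just past the cell-cycle limit to strongly cycling ones. The median cell had 15, 10 and 8 UMIs of the 8 cell-cycle genes in WT, *LApc* and *LApcL*. Cells with 16 or more made up 303 (49.0%), 46 (32.9%) and 35 (29.2%), and those with 4 to 7 made up 167 (27.0%), 57 (40.7%) and 52 (43.3%). Most had more UMIs of other mitosis genes than of S-phase genes, namely 84.5%, 92.1% and 78.3% of those in WT, *LApc* and *LApcL*. Non-cycling goblet cells gave 81.3%, 69.9% and 71.4% and cycling TA cells 75.3%, 83.6% and 70.4%, so this share does not place a cell in mitosis. The ratio of mitosis to S-phase UMIs was 3.44, 4.00 and 2.43 in cycling goblet cells, against 2.24, 2.77 and 1.76 in cycling TA cells. The 8 genes of the gate are mostly genes of G2 and mitosis, in both classes alike.

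The *Tff3* limit was also met narrowly by many cells. The median *Tff3* share was 3.26%, 2.91% and 2.91%, while in non-cycling goblet cells it was 6.42%, 8.48% and 6.22%. A share of 5% or more was reached by 108 (17.5%), 12 (8.57%) and 20 (16.7%) cycling goblet cells and by 68.9%, 75.4% and 63.4% of non-cycling ones. Just inside the limit, at 2 to 2.5% *Tff3*, 132, 42 and 37 cells had 9630, 6481 and 5616 CPM of *Agr2*. Just outside, at 1.5 to 2%, 141, 51 and 56 cells had 7831, 5940 and 4630 CPM, so no gap in *Agr2* marks the limit. At exactly 4 cell-cycle UMIs, 68, 23 and 20 cells had 1348, 1958 and 1598 CPM of other mitosis genes, and at 3 UMIs, 125, 27 and 41 cells had 994, 1524 and 1167 CPM.

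Goblet cells with more cell-cycle UMIs had less goblet cargo per UMI and more growth-gene RNA. The 20 cargo genes (*Muc2*, *Fcgbp*, *Zg16*, *Clca1* and the like, without *Tff3*) summed to 185054 CPM in WT goblet cells with 0 cell-cycle UMIs and to 76137 CPM in those with 16 or more. The same sums were 252356 and 59343 CPM in *LApc* and 181869 and 58719 CPM in *LApcL*. The 20 growth genes, nucleolar and translation factors that are known *Myc* targets, went from 3559 to 7013 CPM in WT, from 2712 to 6375 CPM in *LApc* and from 3702 to 7653 CPM in *LApcL*. The direction of both sums was the same in each library, and since the values are shares of UMIs, less cargo leaves room for other genes.

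**Figure D2:**
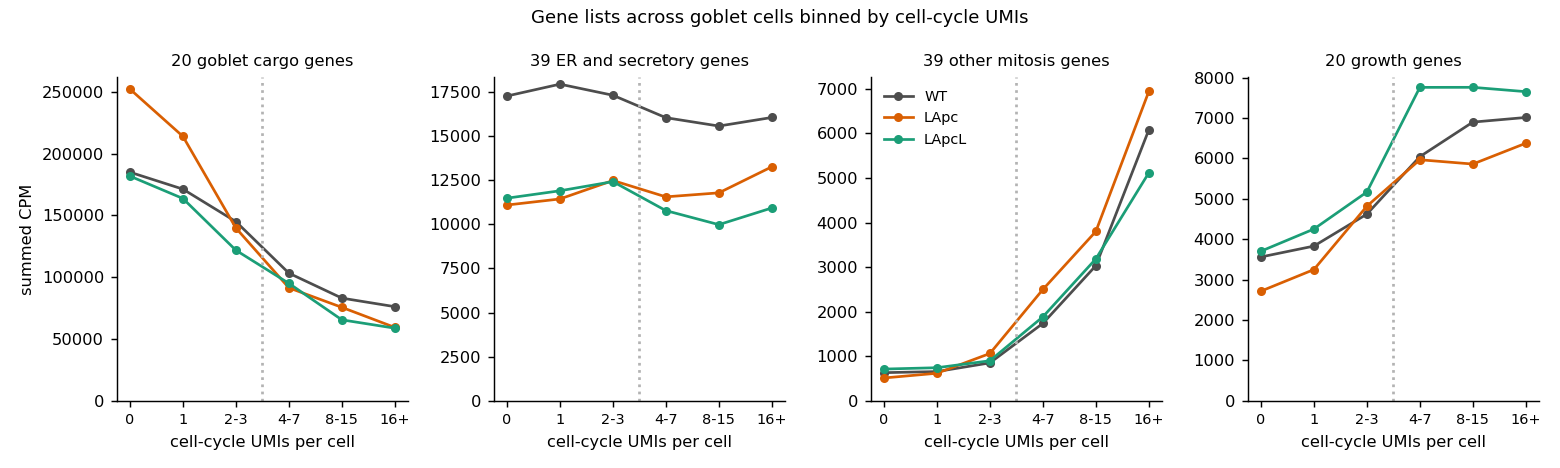
Summed level (CPM, linear axis from 0) of 20 goblet cargo, 39 endoplasmic reticulum and secretory-pathway, 39 other mitosis and 20 growth genes in goblet cells binned by their UMIs of the 8 cell-cycle genes, 1 line per library; the dotted line is the limit of 4 UMIs. Cargo declined and growth genes climbed from the bin with 0 UMIs to the bin with 16 or more in each of the 3 libraries.

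*Ccl9* and the Notch ligand *Dll1* did not follow the cargo genes across these bins. From 0 to 16 or more cell-cycle UMIs, *Ccl9* went from 361 to 416 CPM in WT, from 241 to 511 CPM in *LApc* and from 390 to 308 CPM in *LApcL*. *Dll1* went from 51.4 to 69.0 CPM, from 43.9 to 95 CPM and from 33.7 to 16.1 CPM. For both genes the strongly cycling cells were higher in WT and *LApc* and lower in *LApcL*. *Atoh1* went from 174 to 118 CPM, from 188 to 145 CPM and from 133 to 68.4 CPM, lower in each library.

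Compared with non-cycling goblet cells, cycling goblet cells stood at least 2-fold higher in all 3 libraries for 149 of 2582 genes (5.77%) and at least 2-fold lower in all 3 for 18 (0.697%). A gene entered this count with a mean of 50 CPM or more in either class. Centring each library on its median gene, which lay 0.31 above 0 on the log2 scale, turned these counts into 86 higher and 67 lower. The higher genes were led by mitosis genes, which follow from the gate.

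Of 39 mitosis genes outside the gate, 15 were tested and 14 were higher in all 3 libraries, with a list median of 3.62 on the log2 scale. *Nusap1*, a spindle microtubule protein, was at 86.1, 79.0 and 62.6 CPM in cycling goblet cells and at 2.42, 2.97 and 3.35 CPM in non-cycling ones, a log2 difference of 5.15 in WT (4.79 to 5.54), 4.73 in *LApc* and 4.22 in *LApcL*. *Cdc20*, the activator of the anaphase-promoting complex whose promoter is shown above, was at 103, 110 and 72.8 CPM against 4.77, 5.63 and 9.74 CPM. *Tpx2*, a spindle assembly factor, differed by 4.96, 4.73 and 4.16 on the log2 scale, and the motor protein gene *Cenpe* by 4.58, 4.80 and 3.77. Each of these genes separated the 2 classes in every library, with the smallest difference in *LApcL*.

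S-phase and growth genes were also higher. Of the 8 tested S-phase genes, 7 (*Pcna*, *Tyms*, *Rrm1*, *Nasp*, *Lig1*, *Dut* and *Usp1*) passed 2-fold in all 3 libraries, with a list median of 1.88 on the log2 scale. *Pcna*, the sliding clamp of DNA replication, was at 54.8, 57.9 and 39.4 CPM against 18.5, 21.0 and 19.5 CPM in non-cycling goblet cells. Of 18 tested growth genes, 6 passed (*Ncl*, *Nop56*, *Nop58*, *Gnl3*, *Hspd1* and *Ran*), with a list median of 1.08. *Ncl*, the nucleolar protein nucleolin, was at 519, 543 and 811 CPM against 199, 184 and 347 CPM. The 76 ribosomal protein genes gave no call, with a median of 0.52, and stood above 0 in all 3 libraries.

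Goblet cargo genes were lower. *Fcgbp*, *Clca1* and *Zg16* were the 3 of 19 tested cargo genes that passed 2-fold in all 3 libraries, and the list median was −0.92 on the log2 scale. *Zg16*, a lectin of the mucus layer, was at 25985, 27662 and 31289 CPM in cycling and 76548, 142754 and 80770 CPM in non-cycling goblet cells, the widest gap being in *LApc*. *Muc2*, the gel-forming mucin, was at 5611, 5010 and 4395 CPM against 10498, 11857 and 8779 CPM. *Agr2* was at 13589, 7651 and 5882 CPM against 19910, 10175 and 9869 CPM, a smaller difference of −0.55, −0.41 and −0.75 on the log2 scale. These calls depended on the *Tff3* limit. With at least 5% *Tff3* required in both classes, 1 gene of any kind was lower in all 3 libraries instead of 18, and the cargo median was −0.39.

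Other genes lower in all 3 libraries included genes of mature villus cells. *Ido1*, which breaks down tryptophan, differed by −2.24, −2.71 and −1.67 on the log2 scale in WT, *LApc* and *LApcL*. *Mxd1*, a *Myc* antagonist of differentiated cells, differed by −1.28, −1.99 and −1.13, and the fatty acid binding protein gene *Fabp1* by −1.30, −1.37 and −1.16. The 10 enterocyte markers summed to 4116, 5214 and 3042 CPM in cycling goblet cells, against 7372, 11861 and 6249 CPM in non-cycling ones, and 2 of the 10 (*Fabp1* and *Rbp2*) passed. The p21 gene *Cdkn1a*, an inhibitor of cyclin-dependent kinases, was at 98.6, 130 and 165 CPM against 195, 266 and 260 CPM and did not pass 2-fold in each library.

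The goblet transcription factors gave no call in either direction among 9 tested, with a list median of −0.62. *Atoh1* was at 117, 117 and 71.4 CPM in cycling goblet cells and 171, 184 and 134 CPM in non-cycling ones. *Spdef* was at 109, 65.7 and 64.6 CPM against 142, 110 and 107 CPM. *Klf4* was at 177, 211 and 147 CPM against 268, 356 and 304 CPM. All 3 genes stood lower in cycling goblet cells in every library, by less than 2-fold except for *Klf4* in *LApcL*.

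*Creb3l1* and *Ccl9* stood closest to their non-cycling levels. *Creb3l1* was at 137, 127 and 105 CPM against 155, 130 and 156 CPM, and *Ccl9* at 376, 351 and 273 CPM against 372, 246 and 400 CPM. The direction of *Ccl9* differed among libraries, with log2 differences of 0.02, 0.51 and −0.55. Without the barcodes that Scrublet marked, the *Ccl9* levels of cycling goblet cells given above exceeded those of all non-cycling goblet cells in every library. The endoplasmic reticulum and secretory-pathway list was level as a whole, with 0 of 37 tested genes passing in either direction and a median of −0.06. Its sum was 15946, 12213 and 10625 CPM against 17509, 11300 and 11839 CPM. The mucin glycosylation enzymes had a median of −0.53 and gave 0 calls among 14 tested.

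**Figure D3:**
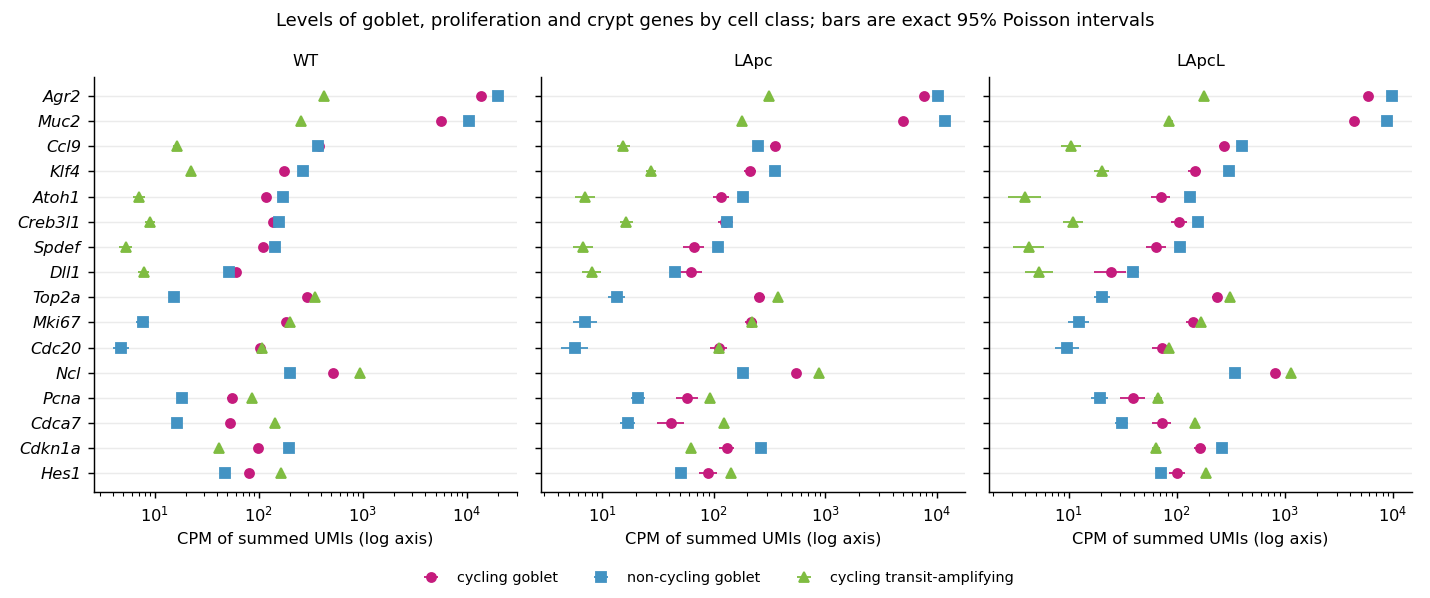
Level (CPM, log axis) of 16 genes in cycling goblet cells (circles), non-cycling goblet cells (squares) and cycling TA cells (triangles) in WT, *LApc* and *LApcL*, with exact Poisson 95% intervals. *Agr2*, *Muc2*, *Atoh1* and *Spdef* in cycling goblet cells lay below the non-cycling goblet level in each library, but closer to it than to TA on this axis. *Top2a*, *Mki67* and *Cdc20* lay near TA and far above non-cycling goblet cells.

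Against cycling TA cells, 121 of 2755 genes (4.39%) stood at least 2-fold higher in all 3 libraries and 8 (0.29%) stood lower. Centred on the median gene, which lay 0.20 below 0 on the log2 scale, the counts were 158 and 0. The higher genes were those of goblet cells, which follow in part from the *Tff3* limit: 18 of 19 tested cargo genes, with a list median of 4.80, and 6 of 9 tested transcription factors (*Atoh1*, *Spdef*, *Creb3l1*, *Creb3l4*, *Foxa3* and *Klf4*), with a list median of 2.93. *Atoh1* was at 7.09, 6.99 and 3.97 CPM in TA cells, and the log2 differences were 4.04, 4.06 and 4.17. *Spdef* differed by 4.37, 3.29 and 3.90, *Creb3l1* by 3.91, 2.95 and 3.25, and *Ccl9* by 4.53, 4.51 and 4.70.

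Secretory machinery was above the TA level while mitosis genes were near it. Of 12 tested mucin glycosylation genes, 9 passed, with a median of 1.75. *Gcnt3*, a core mucin branching enzyme, was at 178, 236 and 150 CPM in cycling goblet cells and at 10.4, 22.3 and 15.1 CPM in TA cells. Of 36 tested secretory-pathway genes, 3 passed (*Pdia5*, *Sec11c* and *Kdelr2*), and 35 were above 0 in all 3 libraries with a median of 0.63. *Pdia5*, a protein disulphide isomerase, was at 130, 97.0 and 72.8 CPM against 10.3, 9.60 and 9.58 CPM. None of 17 tested mitosis genes passed in either direction, and their median of −0.20 equalled that of all genes. *Cdkn1a*, which stood below its non-cycling level, was 1.24, 1.05 and 1.36 above its TA level on the log2 scale.

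Of 6 tested crypt genes, 1 (*Cdca7*) passed as lower in cycling goblet than in TA cells, and of 17 tested S-phase genes 1 (*Hells*) did; neither was called after centring. *Cdca7*, a DNA methylation factor, was at 53.5, 41.5 and 72.8 CPM against 143, 123 and 146 CPM in TA cells, and *Hells*, its partner remodeller, at 51.5, 24.3 and 58.5 CPM against 105, 67.4 and 117 CPM. The stem cell marker *Lgr5* was at 5.99, 11.7 and 2.04 CPM against 22.8, 21.1 and 17.4 CPM in TA cells and 2.79, 2.65 and 3.19 CPM in non-cycling goblet cells. The other 6 of the 8 lower genes included *Cps1*, an enzyme of ammonia handling (−1.24, −1.17 and −1.65), and *Gkn3*, a secreted gastrokine (−2.35, −1.68 and −1.15). Growth genes had a median of −0.62 with 0 of 19 passing.

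The Notch ligand genes *Dll1* and *Dll4* stood above their TA levels and the target gene *Hes1* below its TA level. Of the 16 genes in the Notch list, 1 met the minimum of 50 CPM against TA cells, and it was not called. Neither ligand met that minimum. *Dll1* was at 60.2 CPM in WT cycling goblet cells (55.0 to 65.8), 62.6 CPM in *LApc* (49.6 to 77.9) and 24.5 CPM in *LApcL* (17.1 to 33.9). In TA cells it was at 7.89, 8.05 and 5.37 CPM, and in non-cycling goblet cells at 51.3, 44.6 and 39.7 CPM. WT and *LApc* overlapped and *LApcL* lay below both. After thinning to 3000 UMIs, 17.5%, 17.3% and 9.17% of cycling goblet cells had a *Dll1* UMI, against 3.42%, 3.70% and 3.04% of enterocytes, which do not make this ligand in quantity. The intervals of the thinned goblet shares were 14.6 to 20.7%, 11.4 to 24.6% and 4.67 to 15.8%, so that of *LApcL* overlapped both others.

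*Dll4* was at 17.6, 18 and 8.16 CPM in cycling goblet cells and 2.80, 3.32 and 1.52 CPM in TA cells. *Hes1*, which Notch signalling switches on, was at 81.2, 89.2 and 101 CPM in cycling goblet cells, between 47.0, 51.2 and 71.0 CPM in non-cycling goblet cells and 163, 141 and 185 CPM in TA cells. The enteroendocrine factor *Neurog3* stood at 1.83, 0.783 and 1.36 CPM, too low for any comparison.

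Each gene was then placed against both neighbouring classes at once. Of 2453 genes with enough signal in the 3 classes, 1557 (63.5%) lay between the non-cycling goblet and the TA level in all 3 libraries, 87 (3.55%) lay above both, 42 (1.71%) lay below both and 767 did not hold 1 place. A place took only the sign of each difference, with no minimum margin. Among the 87 genes above both, no gene had a smallest margin over 0.245 on the log2 scale. All 8 S-phase genes, all 76 ribosomal protein genes, 14 of 15 mitosis genes, 17 of 19 cargo genes, 11 of 12 mucin glycosylation genes and 7 of 9 goblet transcription factors lay between. These counts stand beside the 63.5% over all genes. A sum of 2 cells, 1 of each class, would also lie between, and its part was not tested. The secretory-pathway list had 9 genes between, 3 above both (*Hsp90b1*, *Sdf2l1* and *Ssr1*) and 24 without 1 place.

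**Figure D4:**
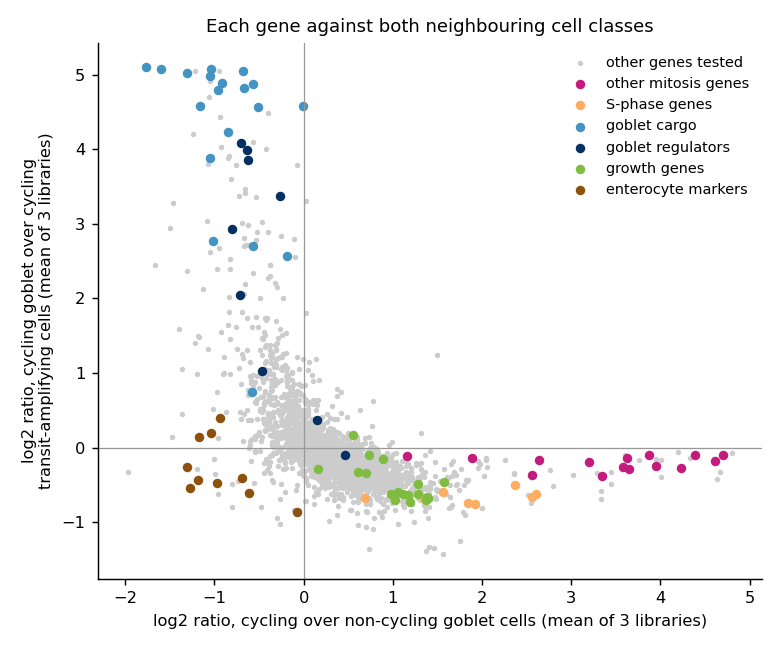
Mean log2 difference over the 3 libraries of each gene between cycling goblet and non-cycling goblet cells (horizontal axis) and between cycling goblet and cycling TA cells (vertical axis), with gene lists coloured. Mitosis genes lay far right near 0 on the vertical axis, goblet cargo genes lay at the top and left, and genes in the lower right and upper left of the plot lay between the 2 classes.

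The level of *Hsp90b1*, an endoplasmic reticulum chaperone, was 851, 507 and 449 CPM in cycling goblet cells, above 733, 354 and 400 CPM in non-cycling goblet cells and above 557, 388 and 389 CPM in TA cells, so it did not lie between them in any library. Enteroendocrine and tuft genes, which mark other secretory cells, reached 4 UMIs in 5.02%, 5.00% and 0% of cycling goblet cells (0 of 120 allows a share of up to 3.03%), against 4.57%, 2.46% and 2.29% of non-cycling goblet cells.

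Between *LApc* and WT, few genes of the cycling goblet cells differed by 2-fold. With 50 CPM or more in either library, 28 of 2618 genes (1.07%) stood higher in *LApc* and 25 (0.955%) stood lower. None of 9 goblet transcription factors and none of 18 mitosis genes was among them, and both list medians lay within 0.01 of 0 on the log2 scale. *Mt2*, a metallothionein, was at 344 CPM in *LApc* and 80.7 CPM in WT, a log2 difference of 2.09 (1.91 to 2.27), and differed by 1.94 in non-cycling goblet cells. *Reg3b*, an antibacterial lectin, was at 5786 against 2406 CPM, 1.27 (1.23 to 1.30), and the cold-shock gene *Rbm3* at 766 against 317 CPM, 1.27.

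The genes lower in *LApc* were led by Paneth cell defensins and heat-shock genes. *Defa21* was at 74.3 against 558 CPM in WT and *Defa22* at 77.5 against 499 CPM, and 4 of the 5 tested Paneth genes passed. Because the gate limited only *Lyz1* and *Defa24*, these values describe RNA of Paneth genes present in gated goblet cells. The summed Paneth level was 1882 CPM in WT and 792 CPM in *LApc*, and 2275 and 822 CPM in non-cycling goblet cells. It was 1157 and 291 CPM in cycling TA cells and 1417 and 351 CPM in enterocytes, so the difference was not particular to goblet cells. *Hsph1*, a heat-shock co-chaperone, was at 11 against 69.8 CPM, and *Hsp90aa1*, a cytosolic chaperone, at 253 against 831 CPM, with about the same differences in non-cycling goblet cells (−2.71 and −1.48 on the log2 scale). The cargo genes *Clca1*, *Ang4* and *Itln1* were lower by −1.34, −1.02 and −1.2.

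A sum over 140 or 120 cells can rest on a single cell. *Wfdc18* was at 178 CPM in *LApc* and 3.91 CPM in WT, but 1 cell gave 70.0% of its *LApc* UMIs, and without it the level was 53.9 CPM. *S100g*, a calcium-binding protein, was at 460 against 55.0 CPM, with 66.7% from 1 *LApc* cell and 155 CPM without it. The hormone genes *Cck*, *Gcg*, *Nts* and *Sst* were each carried by 1 cell in at least 1 library, with 60.1 to 95.8% of their UMIs. Leaving out the highest cell of each gene in each library kept 20 of the 28 higher and 23 of the 25 lower genes.

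Between *LApcL* and *LApc*, 37 of 2682 genes (1.38%) stood higher in *LApcL* and 42 (1.57%) lower. The higher genes included the adenoma genes *Msx1* (130 against 5.48 CPM) and *Sox17* (84.3 against 3.91 CPM), the interferon-induced membrane genes *Ifitm1* (330 against 43.8 CPM) and *Ifitm3* (941 against 181 CPM), and *Myl9*, a myosin light chain (114 against 11 CPM). *Cd44*, a Wnt target and adhesion receptor, was at 62.6 against 20.3 CPM. In *LApcL* cells without a *Sox17* or *Msx1* UMI the differences were 3.79 for *Myl9*, 1.56 for *Ifitm1*, 0.90 for *Ifitm3* and 0.77 for *Cd44* on the log2 scale. *Myl9* and *Ifitm1* thus remained past 2-fold in those cells and *Ifitm3* and *Cd44* did not.

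The genes lower in *LApcL* than in *LApc* held all 5 tested enteroendocrine genes, 5 of 9 tested enterocyte genes, and *Dll1*. *Chga*, a granule protein of enteroendocrine cells, was at 6.80 against 113 CPM, with 33.3% of the *LApc* UMIs in 1 cell. For *Cck* 65.1% and for *Gcg* 95.8% of the *LApc* UMIs came from 1 cell, and without the highest cell *Gcg* stood at 2.36 CPM (*LApc*) and 3.48 CPM (*LApcL*) and was no longer called. The enteroendocrine sum was 80.3 against 732 CPM and the enterocyte sum 3042 against 5214 CPM. Cycling TA cells differed in the same direction, at 79.6 against 219 CPM and 3090 against 5267 CPM, and the difference between the classes was not tested. *Reg4*, a secreted lectin, was at 88.4 against 344 CPM, a difference of −1.96, and of −1.80 without the *Sox17* and *Msx1* cells, while in non-cycling goblet cells it was −0.07. *Dll1* differed by −1.35 (−1.96 to −0.77), by −0.73 without those cells and by −0.17 in non-cycling goblet cells. The sulphotransferase gene *Chst4* was at 23.1 against 71.2 CPM. The 17 tested mitosis genes were all below 0 with a median of −0.41, and 18 of 19 growth genes were above 0 with a median of 0.36, both without a call. In cycling TA cells the sums of these lists differed in the same directions. The mitosis sum was 3845 CPM in *LApcL* against 5134 CPM in *LApc*, and the growth sum 9667 against 9010 CPM. Of the 37 higher and 42 lower genes, 32 and 35 kept their place without the highest cell.

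Between *LApcL* and WT, 50 of 2642 genes (1.89%) stood higher in *LApcL* and 47 (1.78%) lower, of which 41 and 44 kept their place without the highest cell. *Ifitm1*, *Msx1* and *Sox17* had 0 UMIs in the WT cells, so their ratios in *LApcL*, 900-, 354- and 230-fold, were taken against a floor of 3 UMIs in the WT sum. *Axin2*, a feedback target of Wnt signalling, was at 69.4 against 23.7 CPM, a difference of 1.55 that became 0.30 in the cells without *Sox17* or *Msx1*. *Agr2* was lower by −1.21, and by −0.81 in those cells. The secretory-pathway list gave 0 calls among 36 tested, but all 36 lay below 0, with a median of −0.55, and −0.32 without those cells. Its sum was also lower in *LApcL* than in WT in the other classes. It was 11839 against 17509 CPM in non-cycling goblet cells, 7424 against 8729 CPM in cycling TA cells and 6437 against 8726 CPM in enterocytes.

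*Sox17* and *Msx1*, which mark the adenoma cells of these libraries, were found in many *LApcL* cycling goblet cells. At least 1 UMI of the 2 genes was seen in 0 of 618 WT cells (up to 0.595%), in 8 of 140 *LApc* cells (5.71%) and in 69 of 120 *LApcL* cells (57.5%, 48.1 to 66.5). In the *LApcL* library the share was 31.4% in non-cycling goblet cells and 36.2% in enterocytes, whose median UMIs were 6706 and 7044 against 11892. With 5 or more UMIs required, it was 23.3% (16.1 to 31.9) in cycling goblet cells, 3.44% in non-cycling goblet cells and 5.57% in enterocytes.

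The contrast was also measured at equal depth. Without thinning, *Sox17* alone was seen in 39.2% of *LApcL* cycling goblet cells, 18% of non-cycling goblet cells and 24.2% of enterocytes. After thinning to 3000 UMIs, 19.2% (12.6 to 27.4) of *LApcL* cycling goblet cells had a *Sox17* UMI and 20.8% (14.0 to 29.2) an *Msx1* UMI. The shares were 8.97% and 10.8% in non-cycling goblet cells, 12.9% and 13.4% in enterocytes, and 48.1% and 56.0% in cycling adenoma cells. The adenoma cells were chosen by having a UMI of either gene, so their shares describe that choice and are not a finding. Against non-cycling goblet cells, whose intervals were 7.15 to 11.1% for *Sox17* and 8.84 to 13.1% for *Msx1*, the intervals of the cycling goblet cells did not overlap for either gene. Against enterocytes the intervals overlapped for both genes, and the enterocyte shares had intervals of 10.8 to 15.3% and 11.2 to 15.8%. Without the barcodes that Scrublet marked, *Sox17* in *LApcL* cycling goblet cells was at 19.5 instead of 84.3 CPM and *Msx1* at 26.0 instead of 130 CPM, and the 12 adenoma genes summed to 95.9 instead of 353 CPM. In *LApc* the same sum was 358 CPM (225 UMIs) without the marked barcodes and 261 CPM (333 UMIs) with them. A single unmarked *LApc* cell gave 159 UMIs of *Wfdc18*, a gene of this list, and the order of the 2 *LApc* sums rests on it.

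The *LApcL* cycling goblet cells with and without these UMIs differed in their goblet genes. The 51 cells with 0 UMIs had 7758 CPM of *Agr2*, 382 CPM of *Ccl9*, 91.2 CPM of *Atoh1* and 93.1 CPM of *Spdef*. The 49 cells with 2 or more had 3538 CPM of *Agr2*, 151 CPM of *Ccl9*, 43.3 CPM of *Atoh1* and 44.6 CPM of *Spdef*. *Dll1* was at 40.7 and 17.6 CPM, and *Sox4*, a factor of progenitor and tumour cells, at 44.6 and 142 CPM. The goblet factors were thus lower and *Sox4* higher in the cells with adenoma UMIs, and *Muc2* stood at 4822 CPM in them against 3756 CPM in the cells with 0. The cells with 2 or more also had more UMIs (a median of 14790 against 9677) and a higher Scrublet score (0.478 against 0.176), and these values moved with the goblet and adenoma genes; what part doublets have in the profile was not tested further.

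**Figure D5:**
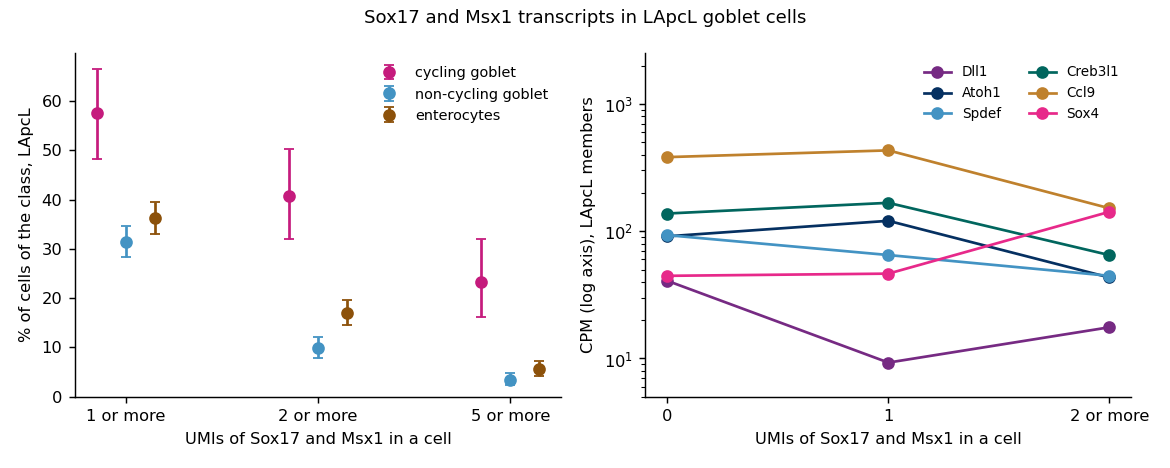
Left, percent of *LApcL* cycling goblet cells, non-cycling goblet cells and enterocytes with at least 1, 2 or 5 UMIs of *Sox17* and *Msx1*, with exact 95% intervals; right, level (CPM, log axis) of 6 genes in *LApcL* cycling goblet cells with 0, 1 or at least 2 of those UMIs. Cycling goblet cells were highest at each limit on the left, and *Atoh1*, *Spdef*, *Creb3l1* and *Ccl9* were lowest and *Sox4* highest in cells with at least 2 UMIs on the right.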

How the data were processed

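Single-cell RNA was measured in 3 libraries, 1 mouse each. The authors aligned reads of the 10x Genomics 3′ assay (kit v2 or v3, not stated per library) to mm10 with Cell Ranger 2.1.1 and deposited raw UMI counts of 27998 genes per barcode; a 3′ count is not divided by gene length, so levels were compared within a gene. The authors' filter (outliers of the number of genes, 20% mitochondrial UMIs, scDblFinder) was not applied to the deposited counts; barcodes with at least 500 genes and at most 20% mitochondrial UMIs were kept here. The members, comparison classes and gene lists were chosen with earlier results of these data known.

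Counts were summed over the cells of a class within each library and given as counts per 1000000 UMIs of that sum (CPM). Log2 differences have exact conditional binomial 95% intervals, levels exact Poisson and shares exact Clopper-Pearson intervals, and all cover counting error only. A gene was called at a 2-fold difference, between classes in all 3 libraries, with a mean of at least 50 CPM in either class, and between genotypes with 50 CPM in either library. A level of 0 was read against a floor of 3 UMIs. Genes were named as the 6 markers, up to 6 genes of each list with the largest mean log2 ratio and the lineage regulators, the 10 highest and 10 lowest called genes by the library nearest 0 for each class comparison, and the 10 highest and 10 lowest of each genotype contrast whose interval excluded 0; other genes in the text were chosen after their values were seen. Cells were thinned to 3000 UMIs to compare shares. No test was made, since each genotype had 1 library.

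Alternatives were a limit of 6 cell-cycle UMIs, cell-cycle genes as a share of UMIs (0.05%), 5% *Tff3*, 10% mitochondrial UMIs, trimming of 1% of barcodes by gene number, removal of Scrublet calls at 0.8% per 1000 barcodes (9.162%, 10.571% and 13.91%), other CPM totals, centring, a 20 CPM minimum and thinning. The method was tested on simulated data. Python 3.11.15, numpy 2.4.6, scipy 1.17.1, pandas 2.3.3, scanpy 1.11.5 and matplotlib 3.10.9 were used. Gene positions are from GENCODE M21 and promoters from RefSeq, GRCm38.p6.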

Additional observations from a re-analysis of the deposited data

Results flagged for a closer look

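For 2 hormone genes, cycling goblet cells differed from non-cycling ones in opposite directions in 2 libraries, and the difference between libraries was not tested. *Nts*, the neurotensin gene, stood at 1.17 on the log2 scale (cycling over non-cycling) in WT and at −1.30 in *LApc*, and 1 cell gave 87.7% of its WT UMIs. *Sst*, the somatostatin gene, stood at 1.09 in *LApc* and at −4.37 in *LApcL*, and 1 cell gave 61.1% of its *LApc* UMIs.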

How the results depend on the processing

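No paired analysis was possible because each genotype had 1 library and no replicate number, and for the same reason no replicate could be left out. *LApc* stayed below WT in its share of cycling goblet cells under each alternative run, and trimming 1% of barcodes by gene number or a 10% mitochondrial limit left all 16 shares and counts within their limits. In percentage points of goblet cells, *LApc* minus WT was −6.13 with cell-cycle genes at 0.05% of UMIs, −4.21 at 5% *Tff3* and −3.97 after thinning. *LApcL* minus *LApc* was 0.0978 after thinning with the limit of 4 cell-cycle UMIs kept, and 0.712 without *Sox17* or *Msx1* barcodes. *LApcL* minus WT was −1.62 at 5% *Tff3* and −9.68 without *Sox17* or *Msx1* barcodes. In points of kept barcodes, *LApc* minus WT and *LApcL* minus WT were −3.57 and −4.02 at 6 cell-cycle UMIs, −3.02 and −3.81 at 0.05%, −0.838 and −0.830 at 5% *Tff3*, −3.03 and −3.39 without Scrublet calls, and −1.81 and −2.28 after thinning. *LApcL* minus *LApc* was −0.915 without *Sox17* or *Msx1* barcodes, and at 5% *Tff3* it turned from −0.582 to 0.00738; the cause was not tested. At 5% *Tff3*, 93 genes were higher and 1 lower than in non-cycling goblet cells, 102 were lower than in TA cells, and genes higher and lower numbered 243 and 246 (*LApc* against WT), 337 and 323 (*LApcL* against *LApc*) and 171 and 205 (*LApcL* against WT), with fewer cells in each sum. Without Scrublet calls, 32 genes were lower than in non-cycling goblet cells, 38 lower than in TA cells, 40 lower in *LApc* than in WT and 19 higher in *LApcL* than in WT. Without *Sox17* or *Msx1* barcodes, chosen after seeing the data, 14 were lower than in TA cells, and 17 and 18 were higher in *LApcL* than in *LApc* and WT. With 0.05%, 18 were lower than in TA cells. With *Tff3*, ribosomal and mitochondrial genes out of the total, 243 were higher than in non-cycling goblet cells, 18 lower than in TA cells, and 76 and 89 higher in *LApcL* than in *LApc* and WT. Centred on the median gene, 86 were higher and 67 lower than in non-cycling goblet cells and 0 lower than in TA cells. At 20 CPM, 301 and 33 were higher and lower than in non-cycling goblet cells, 188 and 16 than in TA cells, 78 and 59 in *LApc* than in WT, 124 and 145 in *LApcL* than in *LApc*, and 132 and 118 in *LApcL* than in WT. Without the highest cell of each gene, also chosen after seeing the data, the genotype counts were 20, 25, 33, 42, 41 and 58. The 120 to 140 cells of *LApc* and *LApcL* limit what their sums can show.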

Other observations

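*Fasn*, *Scd2* and *Acly*, of fatty acid synthesis, were among the 87 genes above both the non-cycling goblet and the TA level in cycling goblet cells. They were picked out after their values were seen, and the other genes of that pathway were not counted. *Fasn*, the fatty acid synthase, was at 43.4, 61.8 and 53.1 CPM in WT, *LApc* and *LApcL* cycling goblet cells, at 32.0, 27.7 and 32.2 CPM in non-cycling goblet cells and at 36.8, 47.6 and 44.9 CPM in TA cells. *Scd2*, a fatty acid desaturase, was at 121, 193 and 69.4 CPM, against 95.9, 91.2 and 50.1 CPM and 63.0, 143 and 63.0 CPM. *Acly*, which makes cytosolic acetyl-CoA, was at 60.6, 60.3 and 53.1 CPM, against 55.9, 49.7 and 48.5 CPM and 29.0, 33.9 and 29.9 CPM. The smaller margins lay within counting error. The log2 interval of *Acly* against non-cycling goblet cells held 0 in all 3 libraries (from −0.03 to 0.26 in WT), and against TA cells in *LApcL* that of *Fasn* ran from −0.13 to 0.60 and that of *Scd2* from −0.18 to 0.45.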
